A study of Sus scrofa with 12 samples.

Results

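Complement is a set of plasma and tissue proteins that marks microbes, immune complexes and damaged cells for removal, and 9 of its genes were chosen here: C3, CFD, C1R, C1S, CFB, CFI, C7, SERPING1 and CD55. They encode components and regulators that cells outside the liver can make, and the C1q genes were left out of this choice. A row of the gene count tables was taken for a gene when its pig Ensembl identifier carried that symbol, which gave 6 of the 9 genes among 25880 gene rows. These were C3, CFD, CFB, CFI, C7 and SERPING1. C1R, C1S and CD55 had no row that could be matched in this way and were not analysed here.

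Gene counts from RNA-seq of longissimus dorsi (LD), the loin muscle, covered 12 Iberian pigs, all castrated males of 1 closed commercial population that were fattened outdoors on acorns and grass and slaughtered at about the same age. The High MB group and the Low MB group held 6 pigs each, with 1 library per pig, and were chosen from the extremes of the estimated breeding value for muscle myoglobin content while avoiding full siblings. Breeding values lay between 0.159 and 0.206 for High MB pigs and between -0.248 and -0.149 for Low MB pigs, and measured myoglobin was 2.48 ± 0.0657 mg/g (SD, n = 6) and 1.39 ± 0.147 mg/g (SD, n = 6). No agent or induced mutation was involved, so the groups differ by selection on a predicted genetic value and by whatever else varies with it.

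Complement starts along 3 routes. The classical route begins when C1q, carrying the proteases C1r and C1s, binds antibody or other ligands; the lectin route begins with sugar-binding proteins and the MASP proteases; and the alternative route runs through factor B (CFB), which factor D (CFD) cleaves once factor B has bound a fragment of C3. All routes meet at C3, the central component, and can end in the membrane attack complex, which C7 helps to anchor in the target membrane. C1 inhibitor (SERPING1) blocks C1r, C1s and the MASP proteases, while factor I (CFI) cuts C3b and C4b into inactive forms. The liver makes most of the circulating proteins, and fat cells, fibroblasts, macrophages and endothelial cells in tissues such as muscle make some of them locally.

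The gene total per library ran from 38914271 to 91318334 counts, with 5 deep libraries of at least 59227608 counts (High MB pigs 4 and 6, with Low MB pigs 1, 5 and 6); the 7 standard libraries had at most 40001432. High MB pig 2 and Low MB pig 4 stood apart from the other 10 pigs when all tested genes were clustered, and values without them are given beside several results. The muscle label held, since 6 of 6 skeletal muscle markers with a row were read in every pig and the actin gene ACTA1 alone had from 893191 to 4828282 counts. High MB pig 2 had the lowest sum of these muscle markers, at 39295 CPM (counts scaled to a common library size with TMM factors) against at least 67541 in every other pig. Liver markers were near 0, with SERPINA1 at 0 in all pigs, TTR at 0 to 4 counts and APOH at 0 to 1, although APOA1 had 172 to 1537 counts.

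In the genome assembly Sscrofa11.1, C3 lies on the plus strand of chromosome 2 from 72431470 to 72471622, CFD on its minus strand from 77509792 to 77511988, and SERPING1 on its minus strand from 13324160 to 13338826. CFB lies on the plus strand of chromosome 7 from 24034077 to 24040523, directly behind C2, its homologue of the classical route, which ends at 24034042. CFI lies on the plus strand of chromosome 8 from 112430824 to 112470844 and C7 on the plus strand of chromosome 16 from 25846860 to 25902707. CFD overlaps MED16, a Mediator gene on the opposite strand, and reads of both cannot be told apart if the counting ignored strand, a setting not given in the sources used here.

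The 250 bases before the annotated starts of SERPING1 and C3 are shown. This pair was taken for having the highest Pearson correlation of all pairs among the 6 genes over the 12 pigs. By rank correlation CFD with CFI stood above it. Without the 2 pigs that stood apart, CFD with SERPING1 and C3 with CFI had higher Pearson correlations. The 2 stretches were read from the RefSeq assembly in the direction of each gene, chr2:13338827-13339076 (minus strand) for SERPING1 and chr2:72431220-72431469 (plus strand) for C3, and neither stretch overlaps another gene. Capitals mark letters that match 1 of 5 motifs searched on both strands.
SERPING1: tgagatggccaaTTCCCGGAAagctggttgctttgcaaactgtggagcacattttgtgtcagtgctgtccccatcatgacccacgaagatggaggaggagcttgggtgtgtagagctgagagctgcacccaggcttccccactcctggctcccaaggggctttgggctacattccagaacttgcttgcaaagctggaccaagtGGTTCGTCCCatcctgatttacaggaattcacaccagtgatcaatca
C3: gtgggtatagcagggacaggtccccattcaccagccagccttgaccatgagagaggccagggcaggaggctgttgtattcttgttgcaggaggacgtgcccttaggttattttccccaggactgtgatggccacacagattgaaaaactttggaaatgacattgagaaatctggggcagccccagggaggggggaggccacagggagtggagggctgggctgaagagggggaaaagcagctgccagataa
The motifs were GAS (TTCNNNGAA, the letters bound by STAT factors), ISRE (GAAA, any 2 bases and GAAA, bound by interferon regulatory factors), a CEBP motif (TTGCNNAA), an NFKB motif (GGGA, any 4 bases and CC) and a TATA box (TATAAA). The SERPING1 window held a GAS match at -238 to -230 from the start and an NFKB match at -47 to -38, which do not overlap each other, and the C3 window held none of the 5. Among the windows of the other genes, CFI held the ISRE letters at -237 to -228, CFD the CEBP letters at -103 to -96 and an NFKB match, CFB 2 NFKB matches and C7 2 TATA matches. Both C7 matches were on the opposite strand, at -222 to -217 and -106 to -101. The CFB window overlaps C2 and the CFD window overlaps MED16. Among 19545 windows of this length in the annotation, 6.11% held the GAS letters, 3% the ISRE letters, 8.22% the CEBP letters, 26.4% the NFKB letters and 9.77% the TATA letters. A match describes letters only and no binding was measured.

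Levels can be compared between genes only per length, as CPM per kilobase of exon (RPKM). On this scale CFD was the most abundant of the 6 genes, with a median of 44.0 RPKM over the 12 pigs and a range from 31.8 to 70.4. SERPING1 followed with a median of 25.7 RPKM (13.6 to 36.4) and C3 with 2.54 RPKM (1.30 to 4.76). The other 3 genes were low, with medians of 0.787 RPKM for CFB (0.567 to 2.03), 0.353 RPKM for C7 (0.0485 to 1.33) and 0.316 RPKM for CFI (0.123 to 0.642). SERPING1 exceeded C3 in all 12 pigs, by a median of 9.87 times, and this was the only neighbouring pair in the order whose ranges did not overlap. CFD exceeded SERPING1 in 11 of 12 pigs, the exception being High MB pig 2, while C3 exceeded CFB in 12 and CFB exceeded C7 in 10. C7 exceeded CFI in only 6 of 12 pigs, so these genes had no order beyond their spread. C1R, C1S and CD55 have no place in this order because they were not analysed here.

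**Figure D1:**
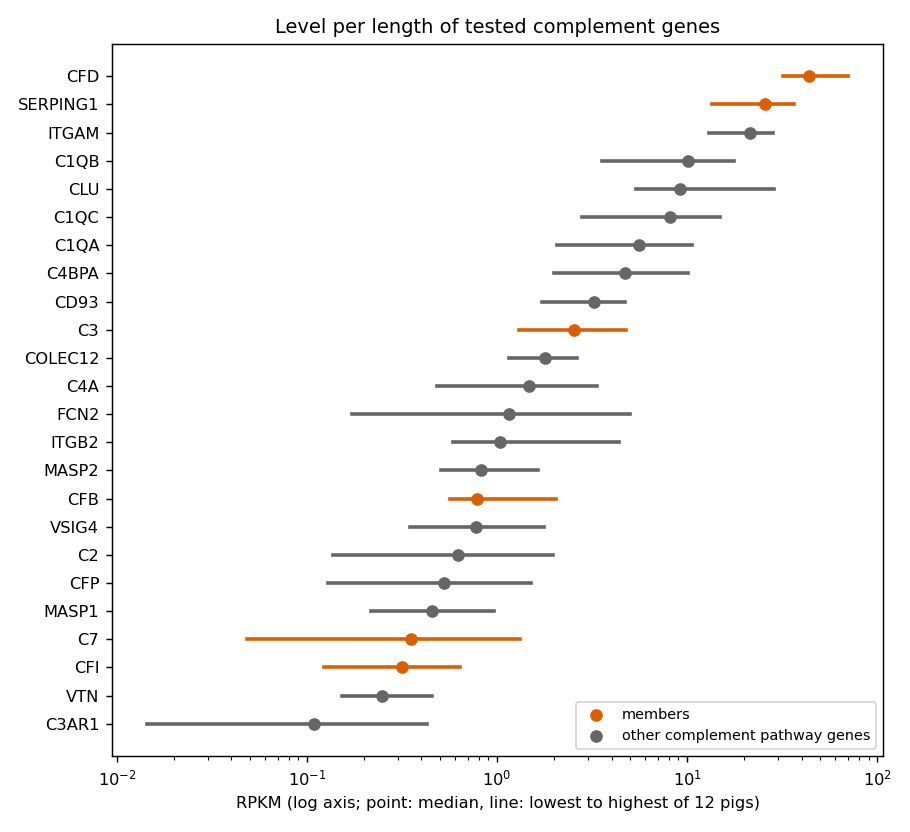
Level per length of the complement genes tested, as RPKM on a log axis; points are medians and lines run from the lowest to the highest of the 12 pigs, with the 6 chosen genes in orange and other pathway genes in grey. CFD (median 44.0 RPKM) and SERPING1 (25.7 RPKM) lie at the top and CFI (0.316 RPKM) near the bottom; C8G is not drawn because no exon length was matched to it.

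The pigs also differed in these genes to unequal degrees. The SD of log2 CPM within groups was 1.58 for C7, larger than in 99.5% of the 13373 genes tested, against a median SD of 0.326 over those genes. C3 (SD 0.584) and CFI (SD 0.570) varied more than 80.2% and 79.2% of the genes tested, and CFB had an SD of 0.417. The most abundant genes were the steadiest, with SDs of 0.334 for CFD and 0.328 for SERPING1, close to the median gene.

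The comparison of the High MB group with the Low MB group asked whether these genes differ between pigs predicted to have much or little myoglobin. A gene was called in edgeR's quasi-likelihood test when its Benjamini-Hochberg adjusted p was under 0.10 and its log2 fold change over 0.58 in size, and 0 of the 6 genes were called, as were 0 of all 13373 genes tested (0%). All 6 log2 fold changes were above 0, where 46.9% of all genes tested were, and their median was 0.43 against -0.016 over all genes tested. At an unadjusted p under 0.05, 3 of the 6 genes (SERPING1, CFD and CFB) were higher in the High MB group, where 5.33% of all genes tested met the same limit in that direction, and 0 of the 6 were lower, where 3.13% were. Without the 2 pigs that stood apart the count was 2 of 6, against 5.06% of all genes tested. DESeq2 also called 0 of the 6, with a smallest adjusted p of 0.382, and called 0.201% of the genes to which it gave an adjusted p. At an unadjusted p under 0.05 DESeq2 also gave 3 genes, again SERPING1, CFD and CFB, where 5.18% of all genes were higher in the High MB group. In none of the 6 genes did every High MB pig lie above every Low MB pig, which was the case for 0.232% of the genes tested. Here and below, fewer cells of a type and less RNA per cell cannot be told apart in bulk muscle.

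**Figure D2:**
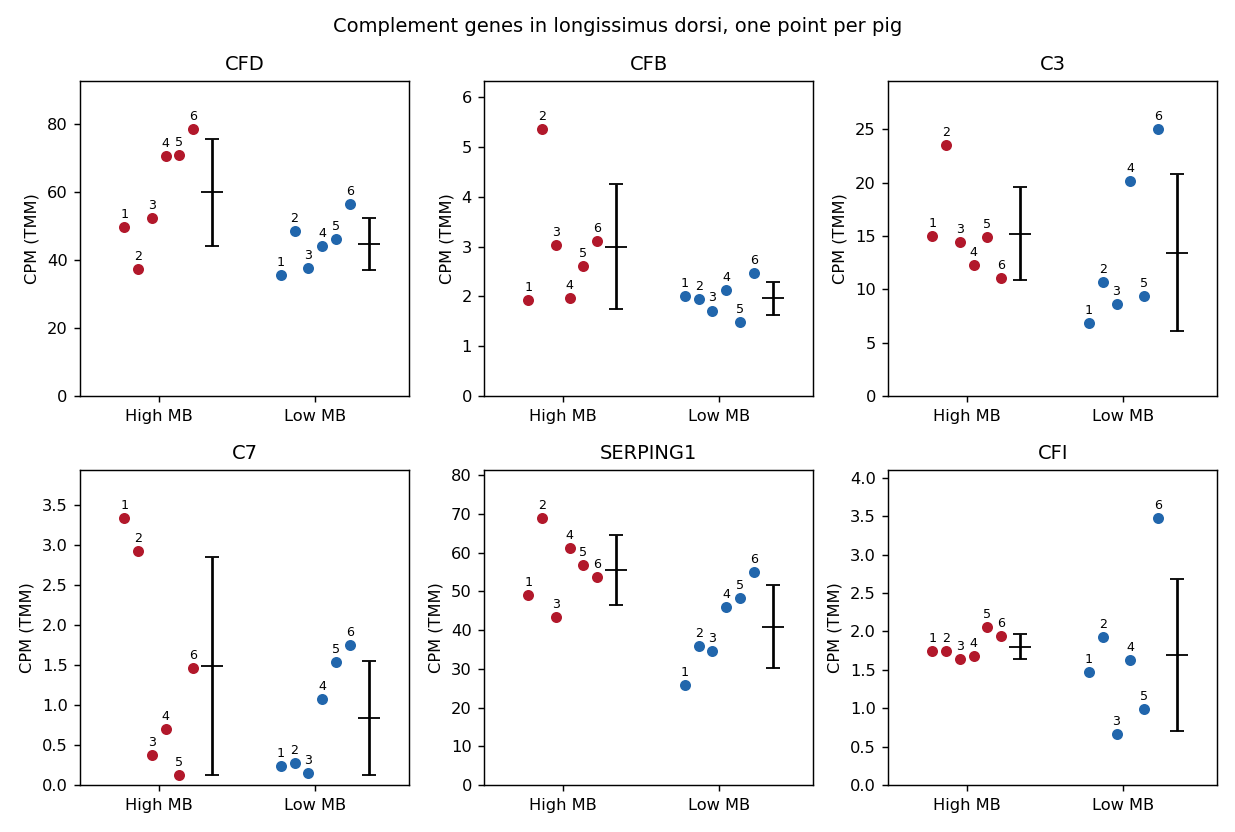
CPM of each of the 6 complement genes in each pig, numbered within its group, with bars for the mean and SD of the 6 pigs per group; every vertical axis starts at 0. SERPING1, CFD and CFB have higher means in the High MB group with overlapping pigs, and C7 spreads from 0.122 to 3.34 CPM.

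Of the alternative route, CFD, the protease that activates factor B and is also known as adipsin, a fat cell product, had a lowest, median and highest value of 37.5, 61.4 and 78.4 CPM in the High MB group and 35.5, 45.2 and 56.3 CPM in the Low MB group. High MB pigs 4, 5 and 6, at 70.5, 70.9 and 78.4 CPM, lay above all Low MB pigs, and the others overlapped. The log2 fold change was 0.42 (SE 0.174), with an unadjusted p of 0.0290 and an adjusted p of 0.563 in edgeR, and the exact two-sided permutation test over all 924 regroupings of the pigs gave p = 0.0736. The difference was larger in the deep libraries, at 0.74, than in the standard ones, at 0.28, and this contrast was not tested. Without the 2 pigs that stood apart it was 0.55, with an unadjusted p of 0.00516. Leaving out High MB pig 4, 5 or 6 or Low MB pig 1 or 3 gave 0.33 to 0.39, with unadjusted p-values from 0.0574 to 0.0783.

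CFB, the protease subunit of the alternative C3 convertase, was read at 67 to 289 counts per pig. Its lowest, median and highest values were 1.93, 2.82 and 5.36 CPM in the High MB group and 1.496, 1.98 and 2.46 CPM in the Low MB group. The 4 High MB pigs 2, 3, 5 and 6 lay above all Low MB pigs, and pig 2 was far above the rest, with the next at 3.11 CPM. The log2 fold change was 0.61 (SE 0.251), the unadjusted p 0.0282, the adjusted p 0.563 in edgeR and the exact permutation p 0.0411. It was 0.39 (unadjusted p 0.0795) without High MB pig 2, 0.42 (unadjusted p 0.0794) without both pigs that stood apart and 0.54 (unadjusted p 0.0593) without Low MB pig 5, so the unadjusted limit was met only with these pigs. Among deep libraries it was 0.40 and among standard ones 0.74.

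C3, the component on which all routes converge, did not separate the groups. The lowest, median and highest values were 11.09, 14.7 and 23.5 CPM in the High MB group and 6.82, 10.04 and 25.0 CPM in the Low MB group. Low MB pigs 6 and 4, at 25.0 and 20.2 CPM, were among the 3 highest of all pigs, although the other 4 Low MB pigs lay below every High MB pig. The log2 fold change was 0.18 (SE 0.300) with an unadjusted p of 0.564 in edgeR, with values of -0.18 among deep libraries and 0.37 among standard ones. Single pigs moved it, to 0.024 without High MB pig 2 and to 0.45 without Low MB pig 6.

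C7, which joins the terminal complex after C5b and C6, was read at only 5 to 141 counts per pig, and its highest value was 27.3 times its lowest. High MB pigs lay between 0.122 and 3.34 CPM with a median of 1.08, and Low MB pigs between 0.154 and 1.76 CPM with a median of 0.678. High values occurred in both groups, in High MB pigs 1, 2 and 6 and in Low MB pigs 4, 5 and 6, and the lowest value of all was in High MB pig 5. The log2 fold change of 0.81 (SE 0.734) had an unadjusted p of 0.289 in edgeR, with values of -0.074 among deep libraries and 1.75 among standard ones. It was 0.41 without High MB pig 1, 0.51 without High MB pig 2 and 1.16 without Low MB pig 6.

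Of the regulators, SERPING1, the serpin that inhibits C1r, C1s and the MASP proteases, had the steadiest difference of the 6 genes. Its lowest, median and highest values were 43.3, 55.3 and 69.0 CPM in the High MB group and 25.8, 40.9 and 55.0 CPM in the Low MB group. The 3 Low MB pigs 1, 2 and 3 lay below every High MB pig and High MB pigs 2, 4 and 5 above every Low MB pig, with the other pigs overlapping. The log2 fold change was 0.44 (SE 0.171), the unadjusted p 0.0215, the adjusted p 0.563 in edgeR and the exact permutation p 0.0368. It stayed at an unadjusted p under 0.05 whichever of the 12 pigs was left out (log2 fold change 0.34 to 0.54), whereas CFB did so in 10 and CFD in 7 of 12. Its value was 0.46 among deep libraries and 0.50 among standard ones, and without the 2 pigs that stood apart 0.43.

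CFI, the protease that inactivates C3b and C4b with the help of cofactors, had means of 1.80 and 1.69 CPM in the High and Low MB groups and ranges of unlike width, between 1.65 and 2.05 CPM for High MB pigs and between 0.667 and 3.48 CPM for Low MB pigs, with medians of 1.75 and 1.55 CPM. Both the lowest pig (Low MB pig 3) and the highest (Low MB pig 6) were in the Low MB group, around the narrow band of the High MB pigs. The log2 fold change was 0.088 (SE 0.319) with an unadjusted p of 0.788 in edgeR, and no direction held. It was 0.43 without Low MB pig 6, -0.056 without Low MB pig 3 and -0.030 without Low MB pig 5, and -0.077 among deep libraries and 0.36 among standard ones. The difference in spread was not tested.

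The other genes of the pathway were taken from a list of 43, of which 32 had a row and 19 had enough counts to be tested. None of the 19 was called by edgeR or DESeq2, whereas 8 were higher in the High MB group at an unadjusted p under 0.05 (background 5.33%) and 0 were lower. Log2 fold changes were above 0 in 16 and below 0 in 3, with a median of 0.61. Without High MB pig 2 the count of 8 was 4, and without both pigs that stood apart it was 7 (background 5.06%).

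The 3 chains of C1q, the recognition molecule of the classical route, which macrophages make, were C1QA, C1QB and C1QC, with log2 fold changes of 0.93, 0.78 and 0.77 and unadjusted p-values of 0.00276, 0.00807 and 0.0119 in edgeR. C2, the classical homologue of CFB next to it on chromosome 7, had a log2 fold change of 1.08 (SE 0.412, unadjusted p 0.0196), and 0.78 without High MB pig 2. C4A, the other subunit of the classical C3 convertase, had 0.54 (SE 0.365, unadjusted p 0.162), with 0.29 without High MB pig 2 and 0.91 without Low MB pig 6. C4BPA, a chain of the C4b-binding protein that restrains this convertase, had 0.93 (unadjusted p 0.00378), although the partner chain C4BPB had at most 2 counts in a pig. Among the receptors, C3AR1, which binds the C3a fragment, had 1.43 (SE 0.591, unadjusted p 0.0294) at 4 to 79 counts. VSIG4, a macrophage receptor for C3b, had 0.74 (unadjusted p 0.0272). ITGB2, the beta chain of complement receptor 3, had 0.93 (unadjusted p 0.0270) and was 0.36 without High MB pig 2 and 0.37 without both pigs that stood apart. Properdin (CFP), which stabilises the alternative convertase, had 0.61 (SE 0.438, unadjusted p 0.184), and 0.29 without High MB pig 2. Clusterin (CLU), a fluid-phase inhibitor of the terminal complex, had 0.50 (SE 0.373, unadjusted p 0.198), with 0.14 without High MB pig 2 and 0.91 without Low MB pig 4.

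**Figure D3:**
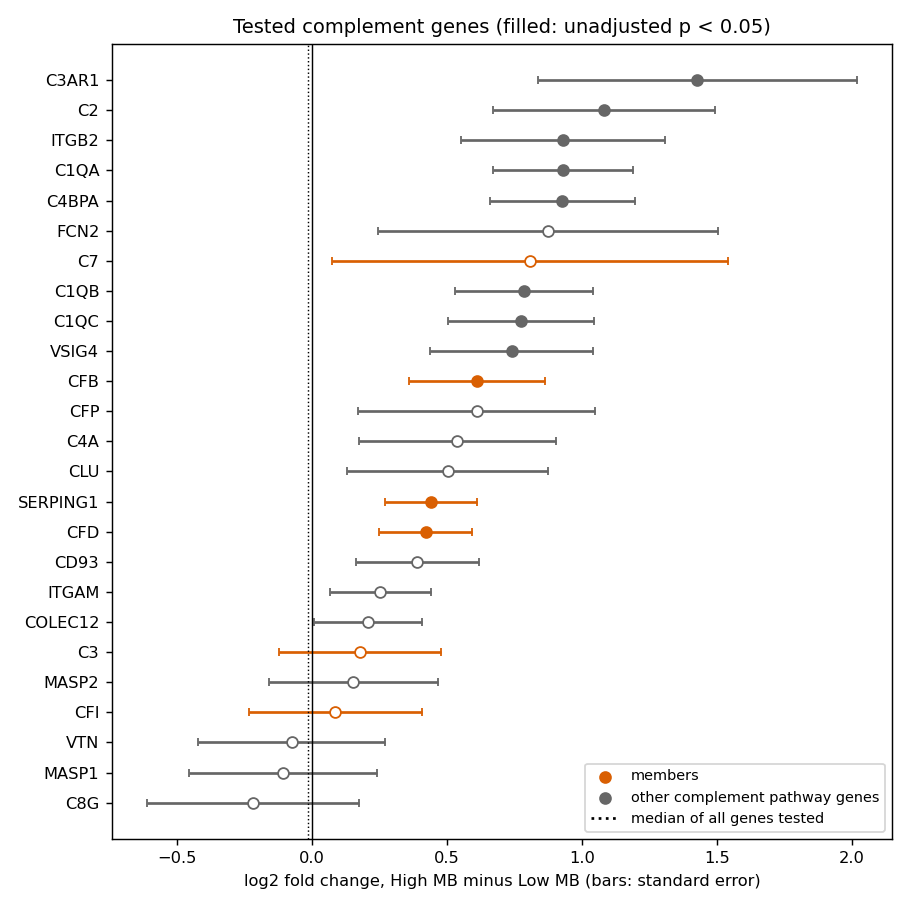
Log2 fold change of each complement gene tested, High MB minus Low MB, with bars of 1 standard error; filled points had an unadjusted p under 0.05 in edgeR, orange marks the 6 chosen genes, and the dotted line marks the median of all genes tested (-0.016). The filled points all lie to the right of 0, from 0.42 (CFD) to 1.43 (C3AR1), and none passed the adjusted limit.

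The terminal components were nearly unread in this muscle apart from C7. C5 had 0 to 13 counts, C6 0 to 2 and C9 0 to 4, and C8A and C8B had 0 counts in all 12 pigs, while C8G had 4 to 48. The lectin MBL2 and the carboxypeptidase subunit CPN1 were also at 0 in all pigs. The lectin proteases MASP1 and MASP2 had log2 fold changes of -0.11 and 0.15, and neither direction held. MASP1 had 0.35 without the 2 pigs that stood apart, 0.21 without Low MB pig 4, and 0.27 and -0.37 among deep and standard libraries. MASP2 had -0.0046 without High MB pig 5 and 0.44 without Low MB pig 6. CD46, CD59 and C5AR1 were not analysed here, for want of a row that could be matched.

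No pair of the 6 genes had a correlation that passed correction (0 of 15 at an adjusted p under 0.05). All 15 Pearson correlations of log2 CPM over the 12 pigs were positive, from 0.028 to 0.71 with a median of 0.48, where 49.7% of all pairs of tested genes were positive. These values include the difference between the groups. For deviations from the group means 2 of the 15 were negative, CFD with CFB (-0.34) and with C7 (-0.11), and the median was 0.34. Among the High MB pigs alone 6 of 15 were negative and among the Low MB pigs 0 were. The highest r over the 12 pigs was that of C3 with SERPING1, at r = 0.71 (permutation p = 0.00891, adjusted p = 0.134) and rho = 0.66 (permutation p = 0.0208, adjusted p = 0.156). The highest rho was that of CFD with CFI, at 0.69 (permutation p = 0.0174, adjusted p = 0.156), with r = 0.48. For C3 with SERPING1 r was 0.57 without the 2 pigs farthest from the median of C3, and 0.85 within the standard and 0.67 within the deep libraries. Without the 2 pigs that stood apart it was 0.69, below CFD with SERPING1 at 0.86 (0.53 over all pigs) and C3 with CFI at 0.75 (0.63 over all pigs). CFD with CFB also moved, from 0.077 to 0.60, and C3 with CFD from 0.15 to 0.52, while CFB with C7 went from 0.28 to -0.041 and CFB with SERPING1 from 0.52 to 0.31. C3 with CFD, at r = 0.15 over all pigs (permutation p = 0.627, adjusted p = 0.724), rho = 0.25 (permutation p = 0.433) and r = -0.17 without the 2 pigs farthest from the median of C3, had an r of -0.89 among the 6 High MB pigs (exact permutation p = 0.0111) and of 0.77 among the 6 Low MB pigs (exact permutation p = 0.0792). These opposite values were picked from all pairs after they were seen, and their difference was not tested.

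**Figure D4:**
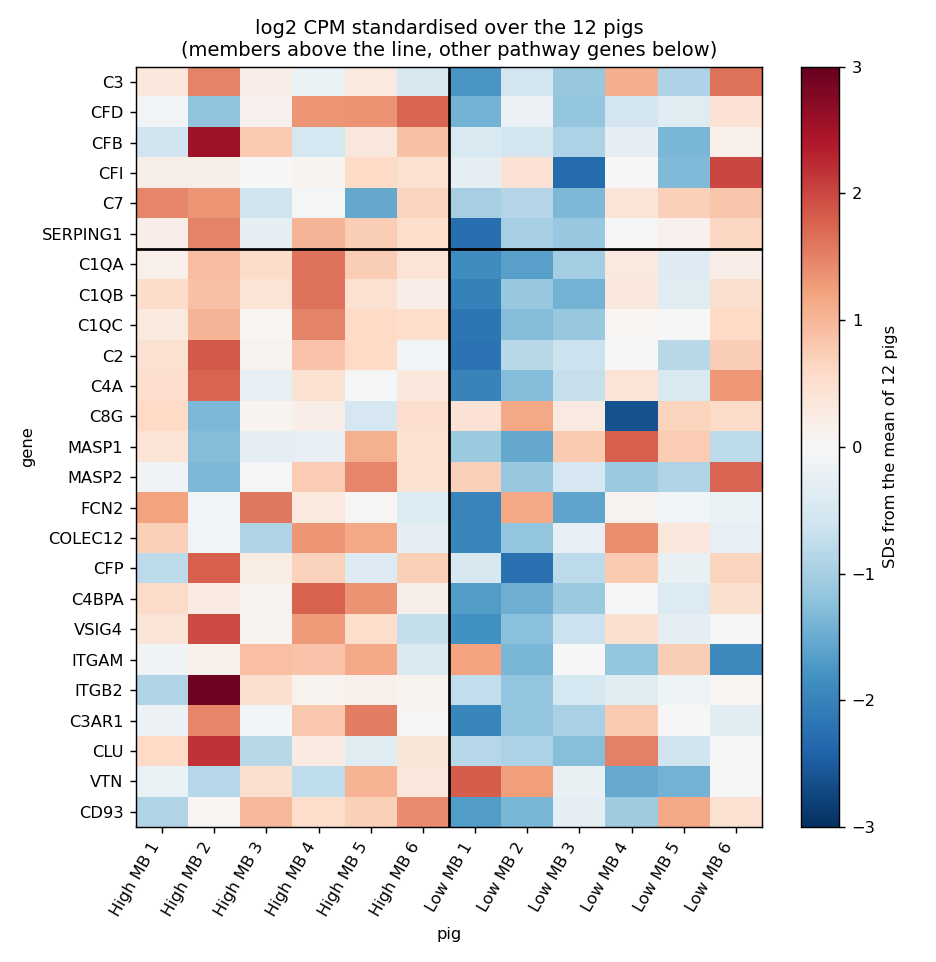
Log2 CPM of each tested complement gene in each pig, in SDs from the mean of the 12 pigs (colour scale), with the 6 chosen genes above the horizontal line and the groups on either side of the vertical line. Low MB pig 1 had the lowest value in 14 of the 25 genes and High MB pig 2 the highest in 8. The shares of all genes tested that were extreme in these pigs were not determined.

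Within the groups no relation of a gene's level to myoglobin content passed its test. Over 12 relations (6 genes in each group of 6 pigs), r ran from -0.76 to 0.30, 0 had an exact permutation p under 0.05, and the smallest adjusted p was 0.600. The most negative was CFD in the Low MB group, with r = -0.76 (exact permutation p = 0.0819) and rho = -0.77 (exact permutation p = 0.103). In the Low MB group r was below 0 for all 6 genes, up to -0.28 for C3, whereas the differences between the groups were all above 0. In the High MB group r lay between -0.42 (C7) and 0.30 (SERPING1).

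Markers of other cell types in muscle moved with some of these genes. Of 10 macrophage markers, 8 were higher in the High MB group at an unadjusted p under 0.05, which 5.33% of all genes tested met, and their summed level spanned 67.3 to 156 CPM among High MB pigs and 32.1 to 77.5 CPM among Low MB pigs. Of 8 fibroblast markers 5 were higher at this limit, with sums of 586 to 1012 CPM and 309 to 745 CPM, and of 7 adipocyte markers 2 (FABP4 and CIDEC) were, with sums of 442 to 769 CPM and 402 to 684 CPM. None of 4 endothelial markers met the limit, with sums of 114 to 157 CPM and 70.1 to 175 CPM. Among 4 T cell markers and 5 of smooth muscle and pericytes 0 met it, 3 neutrophil markers had too few counts to be tested, and the 2 of 6 skeletal muscle markers that met it were the slow fibre troponins TNNI1 (log2 fold change 0.58) and TNNT1 (0.56). Log2 fold changes were above 0 in all macrophage, fibroblast, adipocyte, endothelial and smooth muscle and pericyte markers tested, against 46.9% of all genes tested. They were above 0 in 3 of 4 T cell and 2 of 6 skeletal muscle markers. Medians were 0.93 for macrophage, 0.85 for adipocyte, 0.64 for fibroblast, 0.39 for smooth muscle and pericyte, 0.26 for endothelial, 0.21 for T cell and -0.076 for skeletal muscle markers. No marker of the macrophage, fibroblast, adipocyte and endothelial lists was at 0 in all pigs, and 3 of the 10 macrophage markers are the C1q chains, which also stand in the pathway list. The sums weigh each marker by its level. The largest fibroblast marker was the collagen gene COL3A1, with means of 408 and 262 CPM in the High and Low MB groups, beside COL1A1 at 144 and 91.0 CPM. The largest adipocyte marker was PLIN4, at 335 and 316 CPM.

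SERPING1 followed the macrophage, fibroblast and endothelial markers. Of 30 relations between the 6 genes and the sums of 5 such lists over the 12 pigs, computed after earlier results were known, 8 had an adjusted p under 0.05 by r and 7 by rho. The macrophage list stands among these 5 both with and without the C1q chains, so its relations are counted more than once. The share of all genes tested that would pass with the same sums was not determined. SERPING1 with the macrophage sum had r = 0.93 (permutation p = 1e-05, the smallest that 100000 resamples can give, adjusted p = 0.0003) and rho = 0.94 (adjusted p = 0.0009). Without the C1q chains it was r = 0.84 (permutation adjusted p = 0.00920) and rho = 0.90 (adjusted p = 0.0021), and 0.79 without the 2 pigs farthest from the median of SERPING1. It held within the High MB group (r = 0.88) and the Low MB group (r = 0.83) and within the standard (0.93) and deep (0.88) libraries. SERPING1 also had r = 0.82 with the fibroblast sum (permutation adjusted p = 0.0104, rho = 0.83, r = 0.80 without the 2 farthest pigs, 0.98 among deep libraries and 0.63 among standard ones, and 0.52 and 0.78 within the High and Low MB groups) and 0.77 with the endothelial sum (adjusted p = 0.0187, rho = 0.67, which did not pass, and r = 0.51 without the 2 farthest pigs). The differences between these lists were not tested. C3 had r = 0.76 with the macrophage sum, with or without the C1q chains (permutation adjusted p = 0.0187 and 0.0167), and 0.75 and 0.79 without the 2 farthest pigs.

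CFD followed the fibroblast markers, while its relation to the adipocyte markers did not pass. Its r with the fibroblast sum was 0.83 (permutation adjusted p = 0.00920) and rho 0.77 (adjusted p = 0.0238), and r was 0.80 without the 2 farthest pigs and 0.72 and 0.96 within the High and Low MB groups. With the adipocyte sum it had r = 0.22 (permutation p = 0.489, adjusted p = 0.612) and rho = 0.21, and r was 0.42 without the 2 farthest pigs. Leaving out PLIN4 and LPL, which muscle fibres express as well, the 5 other adipocyte markers gave r = 0.27 (permutation p = 0.389) and rho = 0.24, with r = 0.50 without the 2 farthest pigs, -0.46 among High MB and 0.52 among Low MB pigs. With the macrophage sum CFD had r = 0.35 over all pigs, 0.84 without the 2 pigs that stood apart, -0.44 and 0.72 within the High and Low MB groups, and 0.85 among deep libraries and -0.025 among standard ones. CFB had r = 0.74 with the macrophage sum without the C1q chains (permutation adjusted p = 0.0388), but 0.44 without the 2 farthest pigs, 0.40 without the 2 pigs that stood apart and rho = 0.50 (adjusted p = 0.297), so this relation rests on those pigs. CFI passed only by rank, with the fibroblast sum (rho = 0.75, permutation adjusted p = 0.0290, r = 0.61), and C7 passed with none of the lists. The part of these cell types in the differences between the groups was not tested.

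**Figure D5:**
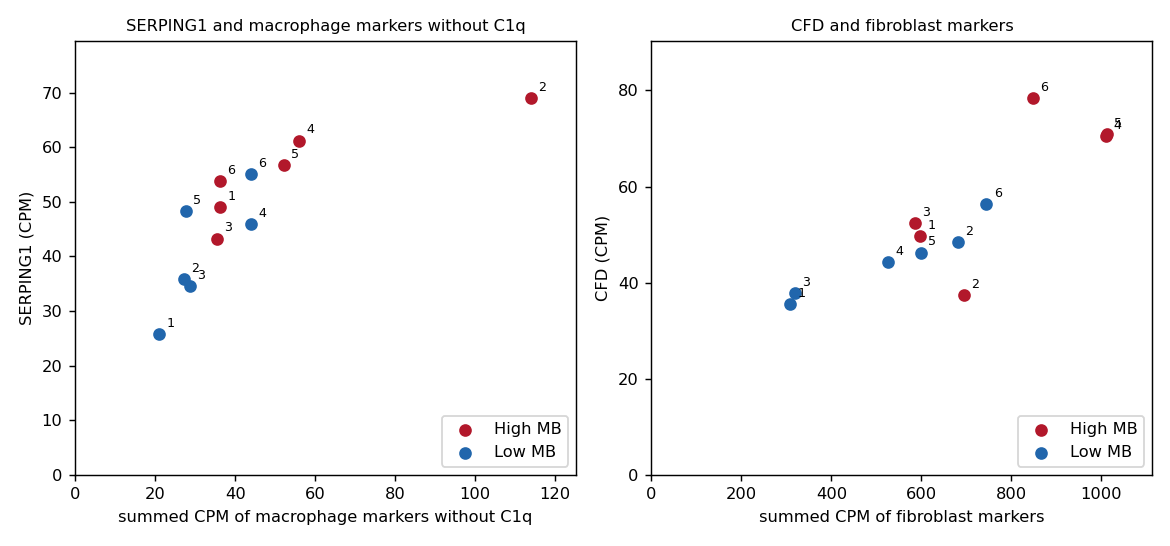
SERPING1 against the summed macrophage markers without C1q (left) and CFD against the summed fibroblast markers (right), in CPM, 1 point per pig, numbered within its group. SERPING1 rises with the macrophage sum in both groups (r of the log2 values 0.84), with High MB pig 2 far to the right, and CFD rises with the fibroblast sum (r 0.83), with High MB pig 2 at 37.5 CPM of CFD beside a fibroblast sum of 694 CPM.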

How the data were processed

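LD RNA of 12 pigs was sequenced as paired-end libraries without unique molecular identifiers. After trimming (TrimGalore) and alignment by hisat2 to the pig assembly Sscrofa11.1, the authors deposited raw htseq-count counts per gene, with no normalization; annotation release, strand and overlap settings are not given in the sources used here. Reads lost or shared at that stage are already part of the counts. Summary lines that name no gene were left out of library sizes, and the deposited transcript counts were not used.

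Samples were grouped by their labels. Gene totals ran from 38914271 to 91318334 counts. The count ranges given run over pigs of unlike depth, so they do not measure counting error alone. Symbols and positions were those of RefSeq for the same assembly. edgeR 4.0.16 in R 4.3.3 (TMM, filterByExpr, glmQLFit, glmQLFTest, High MB minus Low MB, no covariate) was fitted to all genes with adjustment over 13373 genes, and tested on simulated data. The study used DESeq2, and DESeq2 1.42.0 was the alternative, with other size factors, filters, thresholds, depth class as covariate, a block and each pig left out. The SE came from the test statistic. CPM used TMM factors and log2 CPM a prior count of 2. Permutation tests (scipy 1.17.1) were two-sided, exact for group differences and within groups, and of 100000 resamples for correlations over 12 pigs.

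The genes, lists and tests were chosen with earlier results of these data known, so no list's count is independent support. Named genes were the 9 chosen, pathway genes with an unadjusted p under 0.05 or set by name, and, for likeness, the 5 genes with the highest r to the mean of the 6 and the 3 with the highest r to each. C6, C8A, C8B, C8G, C9, C4BPB, MBL2, CPN1, MASP1, MASP2, ITGAM and the marker genes were named after their values were seen.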

Additional observations from a re-analysis of the deposited data

Results flagged for a closer look

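A search covered 34 groups of 6 pigs, for 17 of the 25 tested complement genes in each group. It looked for a pig whose gap to the nearest one, as a share of the group's CPM range, exceeded Dixon's 95% limit. In all, 7 were found. The limit flags about 1 in 20 groups of independent values, but these genes were read in the same pigs, so the 7 cannot be set against that rate. The share over all genes tested was not determined. High MB pig 2 accounted for 6 of the 7. Among the genes described here these were C3, at 23.5 CPM with the next High MB pig at 15.0, and CFB, at 5.36 CPM with the next at 3.11. The other 4 were C2 (5.05 CPM, next 2.71), C4A (18.0 CPM, next 9.55), ITGB2 (12.8 CPM, next 3.93) and CLU (71.6 CPM, next 33.3). This pig also had the highest macrophage sum (156 CPM), the highest neutrophil sum (3.84 CPM, with at most 0.773 in any other pig) and the lowest muscle sum (39295 CPM). The remaining value was CLU in Low MB pig 4, at 52.2 CPM with the next Low MB pig at 24.8. Both pigs are those that stood apart in clustering. No cause was tested.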

How the results depend on the processing

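No complement gene was called under any alternative run, and SERPING1, CFD and CFB kept positive log2 fold changes in all 24 alternatives each (SERPING1 0.34 to 0.54, CFD 0.28 to 0.74, CFB 0.39 to 0.74). Direction was lost elsewhere. In the 5 deep libraries alone C3 had a log2 fold change of -0.18, C7 of -0.074 and CFI of -0.077, and CFI also had -0.056 without Low MB pig 3 and -0.030 without Low MB pig 5, in a range of -0.056 to 0.43 over the pigs left out. The number of the 6 genes at an unadjusted p under 0.05 was 2 or 3 under all alternatives except within the deep libraries (1, CFD) and within the standard ones (1, SERPING1). That of the 19 other pathway genes ran from 4 (without High MB pig 2) to 9 as each pig was left out, was 2 within the deep libraries, and was 7 or 8 otherwise. In CPM without TMM factors, 1 of the 15 pairs passed, C3 with SERPING1 (r = 0.78, permutation adjusted p = 0.0445). C7 did not pass a minimum of 10 counts in every pig. Leaving out the 2 pigs that stood apart, the counts within depth classes and the pathway count at an unadjusted p were added after seeing the data. Causes of these changes were not tested.

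Pigs with the same number in both groups did not deviate together (r from -0.21 to 0.14 over 6 pairs, and 0 of 12 pigs correlated best with its own number), so the numbers do not pair the pigs. With the replicate block none of the 6 genes was called (0), and at an unadjusted p under 0.05 there were 2, SERPING1 (log2 fold change 0.47) and CFD (0.40), against 5.01% of all genes tested, while CFB had 0.54 with a p of 0.0616. In the pathway list 7 met that limit. Of the 6 genes C7 had the fewest counts (from 5 in a pig) and the widest error (SE 0.734), but also the widest spread between pigs.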

Other observations

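Among all tested genes other than the 6, those whose log2 CPM was most like the mean standardised level of the 6 over the 12 pigs were ENSSSCG00000000423 (r = 0.93), SCTR (0.92), TNFSF13B (0.92), LOXL2 (0.92) and MMP19 (0.90). TNFSF13B encodes the B cell factor BAFF, LOXL2 a collagen cross-linking oxidase and MMP19 a matrix protease. SERPING1 was most like C1QC (0.97), FYN (0.97) and LIMA1 (0.97), and with C1QC it was still 0.97 without the 2 farthest pigs. CFD was most like ARHGEF25 (0.94), MRC2 (0.93), a collagen receptor, and MMP23B (0.92). C3 was most like NUMB (0.89), S100A10 (0.89) and FGL2 (0.88), and CFB most like RNH1 (0.93), RHOH (0.91) and ENSSSCG00000040482 (0.90). CFI was most like MCM8 (0.92), SMARCA1 (0.88, but 0.45 without the 2 farthest pigs) and ADAMTS14 (0.85). C7 was most like ZBTB49 (0.94), PCSK5 (0.92) and BNC2 (0.91). These are the highest of 13373 genes in 12 pigs and are given as a description, without a p.

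ITGAM, the alpha chain that pairs with ITGB2 in complement receptor 3, had a median of 21.3 RPKM, against 1.04 RPKM for ITGB2. In Low MB pig 1 ITGAM had the highest level of all pigs, while 14 of the 25 tested complement genes were at their lowest there, a count not set against all genes tested. A gene on the opposite strand overlaps each of these genes in the annotation, and how far it contributes to the counts was not tested.

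C4BPA was read at 314 to 2157 counts per pig while its neighbour and partner chain C4BPB had 0 to 2, and with C1QA, C1QB and C1QC it was highest in High MB pig 4.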
